A study of Mus musculus with 16 samples.

Results

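The Sprouty and Spred feedback inhibitors were described as 5 genes, Spry1, Spry2, Spry4, Spred1 and Spred2, chosen by symbol from the 52636 gene models of the count table. All 5 passed the filter on low counts that left 12215 genes for testing. The libraries came from mouse embryonic stem cells of the line CRAFR26, sequenced after removal of ribosomal RNA. These cells carry an inducible c-RAF kinase construct, and c-RAF is the kinase that starts the RAF, MEK and ERK phosphorylation cascade. Cells of all groups had grown in 2i/LIF medium and then spent 48 h with 250 nM PD17 (PD173074), an FGF receptor inhibitor, in place of the MEK inhibitor PD03. The groups were cells not yet induced (0h), cells given 250 nM 4OHT (4-hydroxytamoxifen) for 2 h (2h) or for 4 h (4h), and cells induced for 4 h and then exposed to a MEK inhibitor for 2 h more (rev). Each group held 4 libraries, 2 from clone 4 and 2 from clone 8 of the targeted line. The main model removes the mean level difference between the clones, so its p-values measure the spread that remains between these cultures. They do not cover the spread over other clones. The dose of MEK inhibitor in rev was not given in the sources used here, and the 16 libraries analysed include no vehicle control and no culture kept for 6 h without the inhibitor.

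Sprouty and Spred proteins restrain signalling from receptor tyrosine kinases to Ras and ERK, and transcription of several of them is itself raised by ERK, which closes a negative feedback loop. Sprouty proteins bind adaptor proteins such as GRB2 and, for some members, RAF, while Spred proteins carry an EVH1 domain and bring the Ras GTPase-activating protein neurofibromin (NF1) to the membrane. In mouse embryonic stem cells, FGF signals through ERK promote the exit from naive pluripotency, and Spry4 is widely used as a reporter of that pathway.

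Total counts ranged from 2172651 to 12680303 per library, and the 8 most abundant gene models took 42.0 to 80.4% of them. The highest share belonged to the second clone 8 library of rev, whose composition factor (TMM, the scaling used throughout) was 0.463, so the main values of rev are also given without it. Levels are CPM, counts scaled to a common TMM-adjusted library size, and in single libraries 3 counts equal 0.213 to 1.35 CPM. All 8 embryonic stem cell markers were expressed, with a summed level of 1635 to 2312 CPM. At 4h against 0h 4 of them were higher and 3 lower, where 33.9% of all tested genes were called in either direction. Nanog, a factor of naive pluripotency, had a log2 fold change of -0.68 (edgeR adjusted p 4.0e-09), and Klf4 (-0.35) and Tfcp2l1 (-0.31) were also lower. Zfp42 (0.40), Sox2 (0.38), Pou5f1 (0.26) and Esrrb (0.23) were higher. Over all 16 libraries the summed level was 3.26 to 6.76 CPM for 5 primitive endoderm markers and 1.87 to 7.66 CPM for 5 fibroblast markers. For 5 trophoblast markers it was 29.8 to 52.2 CPM. Each of these sums overlapped between the 0h and 4h groups, and the highest primitive endoderm and fibroblast sums were in rev. Of 3 trophoblast markers tested at 4h against 0h, 2 were higher and 1 lower, on the same background of 33.9%. Cdx2, a trophoblast transcription factor, was higher at 4h (1.95) and in rev (1.66) than at 0h, with mean levels of 1.32 CPM at 0h, 4.73 at 4h and 3.79 in rev. Tfap2c, the most abundant of the 3, was lower at 4h (-0.73, adjusted p 3.8e-07) and in rev (-0.29, adjusted p 0.0306) than at 0h, with mean levels of 38.9, 23.8 and 32.6 CPM at 0h, at 4h and in rev. The third, Eomes, was higher at 4h (0.98) and not called in rev (0.45, adjusted p 0.128). Col1a1, a fibroblast collagen, was higher at 2h (1.57, adjusted p 0.00603) and in rev (1.93, adjusted p 0.00136) than at 0h, with mean levels of 0.519, 1.34 and 1.98 CPM. It was 1 of 2 fibroblast markers tested, on a background of 11.4% of genes called higher at 2h and 12.4% in rev. The other, the surface protein gene Thy1, had values of -0.23 and -0.07 in these comparisons and was not called, and Col1a2 was too low to test. The part of these marker genes in the members' changes was not tested. Col3a1 and Postn were at 0 in every 0h and 4h library and Sox7 in every 0h library. Fewer cells expressing a gene and less RNA per cell cannot be told apart in such bulk libraries.

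The 3 Sprouty genes are compact, each with its whole reading frame in a single coding exon, whereas Spred1 and Spred2 have 7 coding exons each. In GRCm38 (mm10), Spry1 (ENSMUSG00000037211) lies at chr3:37639947-37644598 on the plus strand and Spry2 (ENSMUSG00000022114) at chr14:105891947-105896819 on the minus strand. Spred1 (ENSMUSG00000027351) lies at chr2:117121374-117182279 and Spred2 (ENSMUSG00000045671) at chr11:19924375-20024026, both on the plus strand. The opposite-strand model Gm42922 overlaps 24.4% of the exon bases of Spry1, and its own count was 0 to 3 in each library. No other gene model overlaps the exons of the other 4 members.

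Because the members moved together after induction, their start regions are shown, taken from the RefSeq promoter table (GRCm38.p6), which held entries for Spry1, Spry2, Spred1 and Spred2. For Spry1, Spry2 and Spred1 these are the 250 bases before the annotated start, written 5′ to 3′ on the gene's strand, at chr3:37639697-37639946 (plus), chr14:105896820-105897069 (minus) and chr2:117120821-117121070 (plus). For Spred2 it is a stretch of 30 bases at chr11:19924387-19924416 (plus). The RefSeq start of Spred1 lies 303 bases upstream of its gene start in GENCODE, and that of Spred2 lies downstream of it, so the Spred2 stretch falls inside the GENCODE gene span. Capitals mark the letters CGGAAG, or CTTCCG where they lie on the other strand.
Spry1: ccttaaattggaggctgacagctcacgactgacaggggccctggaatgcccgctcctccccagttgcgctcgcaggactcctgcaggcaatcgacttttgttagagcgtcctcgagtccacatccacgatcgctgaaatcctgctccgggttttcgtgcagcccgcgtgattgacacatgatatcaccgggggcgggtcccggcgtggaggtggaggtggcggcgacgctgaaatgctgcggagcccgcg
Spry2: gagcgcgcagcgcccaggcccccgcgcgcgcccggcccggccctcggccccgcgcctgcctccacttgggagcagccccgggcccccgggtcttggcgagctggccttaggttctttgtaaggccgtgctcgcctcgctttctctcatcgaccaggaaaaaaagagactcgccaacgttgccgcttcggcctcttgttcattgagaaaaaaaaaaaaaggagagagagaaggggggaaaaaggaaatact
Spred1: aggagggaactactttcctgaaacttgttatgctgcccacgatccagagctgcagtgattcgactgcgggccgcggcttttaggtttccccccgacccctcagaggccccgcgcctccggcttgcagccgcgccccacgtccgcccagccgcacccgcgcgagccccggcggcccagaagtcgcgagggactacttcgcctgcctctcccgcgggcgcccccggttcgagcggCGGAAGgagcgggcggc
Spred2: aagacgtcatcgCTTCCGccctacttcctc

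All 4 start regions held more CpG than the median promoter. Spry1 and Spry2 each held 23 CpG and 62.4% G or C in 250 bases, Spred1 31 CpG and 70.8%, and Spred2 12 CpG and 56.0% in its whole 250-base window, against a median of 6 CpG and 52.4% over 32851 RefSeq promoters of the same length. CGGAAG, the core that ETS factors such as ELK and ETV proteins bind, occurred 17 to 12 bases before the start in Spred1 and, on the other strand, 43 to 38 bases before it in Spred2, counted from the RefSeq start. It was searched on both strands after the sequences had been seen, and 13.6% of all promoters hold it. The longer ETS motif CCGGAAG, which contains that core (6.91% of promoters), the AP-1 motif TGANTCA (6.75%), the CRE motif TGACGTCA (1.55%), the EGR motif GCGTGGGCG (0.536%) and the CArG box (1.47%), each searched on both strands, had no match in these 4 windows. A match here describes letters only.

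At 0h Spry2, Spred1 and Spred2 were well expressed, Spry1 was low and Spry4 was barely detected. In the lists of 4 values that follow, the order is the first and second culture of clone 4 and then of clone 8.

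Spry4 (ENSMUSG00000024427, chr18:38586247-38601415, minus strand) had the widest range of the family. At 0h its level was 0.815, 0.448, 1.77 and 0.962 CPM, from 3, 3, 11 and 9 counts. At 2h it was 154, 150, 135 and 144 CPM, and at 4h 254, 287, 219 and 220 CPM. In rev it was 4.69, 3.26, 1.82 and 2.70 CPM, from 44, 15, 11 and 6 counts. Every 2h and 4h library lay far above every 0h and rev library, and each rev library lay above each 0h library, by a small margin.

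Spry2, the most abundant member per exon length before induction, had 30.7, 29.99, 19.1 and 26.7 CPM at 0h. It reached 59.3, 53.9, 51.7 and 54.3 CPM at 2h and 69.3, 66.2, 52.2 and 55.8 CPM at 4h, and in rev had 23.6, 23.5, 20.7 and 16.7 CPM. The induced libraries were all above the 0h and rev libraries, the 2h and 4h ranges overlapped, and the first clone 8 library was the low one at 0h.

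Spry1 was, per exon length, the weakest member at 2h and 4h. Its level was 3.80, 4.03, 1.77 and 5.45 CPM at 0h and 6.603, 7.44, 6.59 and 6.11 CPM at 2h. It was 13.6, 9.93, 9.49 and 12.1 CPM at 4h, and 3.09, 3.26, 5.14 and 4.06 CPM in rev. These levels rest on 9 to 124 counts a library. The 0h, 2h and 4h ranges were ordered without overlap, and the rev range lay inside the 0h range.

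Spred1 had 16.02, 20.1, 22.7 and 22.3 CPM at 0h and 34.6, 36.8, 31.3 and 34.3 CPM at 2h. At 4h it had 52.2, 48.6, 34.9 and 43.9 CPM, and in rev 28.7, 32.8, 22.5 and 27.5 CPM. The rev libraries lay below every 4h library, and the lowest of them, the first of clone 8, fell within the 0h range.

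Spred2 moved least. It had 42.9, 42.2, 35.2 and 41.9 CPM at 0h and 56.8, 54.3, 56.7 and 56.5 CPM at 2h. It had 56.3, 58.9, 49.4 and 49.99 CPM at 4h, and 49.9, 51.9, 40.9 and 59.0 CPM in rev. The induced libraries were all above the 0h libraries, and the rev range reached from within the 0h range to just past the top of the 4h range.

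**Figure D1:**
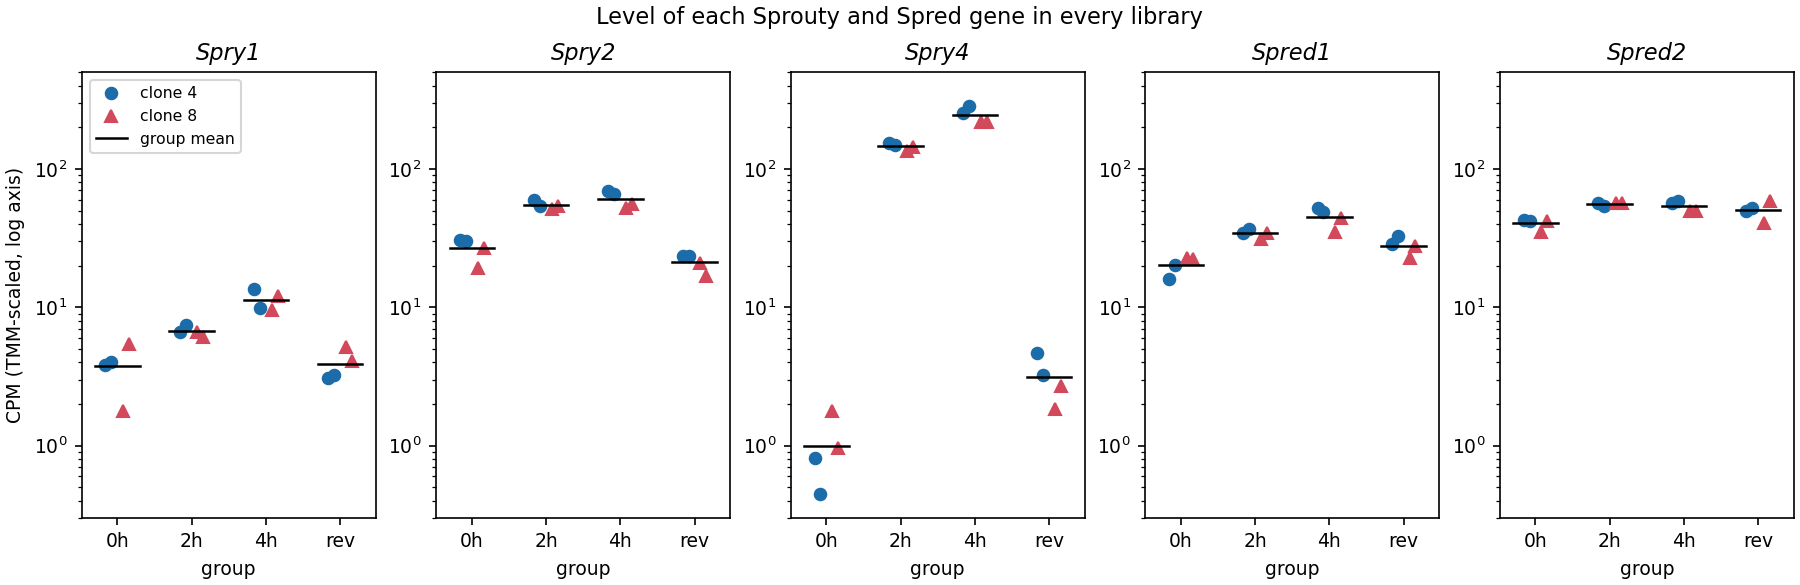
Level of the 5 genes in each of the 16 libraries, in TMM-scaled CPM on a log axis, by group, with circles for clone 4, triangles for clone 8 and a bar at the mean of 4 libraries. Spry4 spans from 0.448 CPM in a 0h library to 287 CPM in a 4h library, while Spred2 stays between 35.2 and 59.0 CPM in all 16.

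The earliest comparison set 2h against 0h and asked which members responded within 2 h of switching on the kinase. All 5 rose, on a background of 11.4% of all tested genes called higher (edgeR quasi-likelihood test, Benjamini-Hochberg adjusted p under 0.05), and for all 5 the CPM ranges did not overlap, which 8.83% of tested genes showed in this direction. The median log2 fold change was 0.72 for the 5 members and -0.02 for all tested genes. Spry4 rose by a log2 fold change of 7.15 (SE 0.16, adjusted p 3.5e-27), from a mean of 0.998 ± 0.557 to 146 ± 8.25 CPM (SD, n = 4 in each group, as for all means here). Spry2 rose by 1.07 (SE 0.09, adjusted p 2.7e-11), from 26.6 ± 5.29 to 54.8 ± 3.21 CPM.

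Spry1, Spred1 and Spred2 rose by smaller amounts at 2h. The log2 fold change of Spry1 was 0.72 (SE 0.21, adjusted p 0.0144), with means of 3.76 ± 1.52 and 6.69 ± 0.556 CPM. This call rested on 1 library: without the first clone 8 library of 0h the log2 fold change was 0.47 and the adjusted p 0.0986. Spred1 rose by 0.71 (SE 0.11, adjusted p 1.0e-05), from 20.3 ± 3.06 to 34.2 ± 2.24 CPM. Spred2 rose by 0.48 (SE 0.08, adjusted p 7.5e-05), from 40.6 ± 3.59 to 56.1 ± 1.196 CPM. Under scaling by library size alone, which leaves composition uncorrected, the values of these 3 genes were 0.77, 0.71 and 0.48 and none was called.

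After 4 h of induction all 5 members were again higher than at 0h, on a background of 17.2% of tested genes called higher, and again no CPM ranges overlapped, which 12.3% of tested genes showed. The members' median log2 fold change was 1.19 and that of all tested genes -0.02. Spry4 stood at 245 ± 32.3 CPM, a log2 fold change of 7.88 (SE 0.16, adjusted p 4.6e-29), which ranked 3 among all genes with a higher level. Spry1, at 11.3 ± 1.94 CPM, had a log2 fold change of 1.53 (SE 0.20, adjusted p 3.8e-07), and Spry2, at 60.9 ± 8.18 CPM, one of 1.19 (SE 0.09, adjusted p 9.9e-13). Spred1 reached 44.9 ± 7.48 CPM (log2 fold change 1.11, SE 0.11, adjusted p 6.7e-10) and Spred2 53.6 ± 4.70 CPM (0.41, SE 0.09, adjusted p 4.2e-04), the call on Spred2 being lost with library size alone (0.51, adjusted p 0.194). The 2h and 4h comparisons share their 0h libraries.

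The fold of Spry4 depends on a 0h level near the detection limit. Pooled over the libraries of a clone, clone 4 had 6 counts at 0h and 4760 at 4h, a ratio of levels of 467 with an exact 95% counting interval of 214 to 1273. Clone 8 had 20 counts at 0h and 1988 at 4h, a ratio of 171 with an interval of 110 to 280. The corresponding ratios of 2h to 0h were 265 (122 to 724) in clone 4 and 109 (70.5 to 179) in clone 8. These intervals cover counting error only.

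The direct comparison of 4h with 2h asked which members went on rising. Spry1, Spry4 and Spred1 rose between 2h and 4h, 3 of 5 members on a background of 3.8% of tested genes called higher, and for Spry1 and Spry4 the ranges did not overlap (4.32% of tested genes). The log2 fold change was 0.80 for Spry1 (SE 0.18, adjusted p 0.0035), 0.74 for Spry4 (SE 0.08, adjusted p 1.1e-07) and 0.40 for Spred1 (SE 0.10, adjusted p 0.0105). Spry2 had a log2 fold change of 0.12 (SE 0.08, adjusted p 0.417) and Spred2 one of -0.08 (SE 0.08, adjusted p 0.661, and 0.035 with library size alone), and neither was called. The call on Spred1 was lost when the first clone 4 library of 2h (0.37, adjusted p 0.0583) or of 4h (0.34, adjusted p 0.0523) was left out. Spry1 and Spred1 were not called with library size alone (0.90 and 0.50) or without clone in the model (0.79 and 0.41).

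In CPM, the part of the 4h rise already present at 2h was 127% ± 48.3 for Spred2, 83.3% ± 15.9 for Spry2, 59.9% ± 5.57 for Spry4, 58.9% ± 8.38 for Spred1 and 39.6% ± 24.9 for Spry1 (mean ± SD over the 4 combinations of clone and culture number, which were not shown to pair the libraries). The spread was narrowest for Spry4 and Spred1 and widest for Spred2.

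Setting rev against 4h asked which members changed during 2 h with the MEK inhibitor. The rev cells were also 2 h further from the start of induction, so inhibitor and time cannot be told apart. The 3 Sprouty genes and Spred1 fell, 4 of 5 members on a background of 8.43% of tested genes called lower, and the same 4 had ranges that did not overlap (6.79% of tested genes). The members' median log2 fold change was -1.50 and that of all tested genes 0.01. Spry4 dropped to 3.12 ± 1.203 CPM, a log2 fold change of -6.20 (SE 0.14, adjusted p 1.2e-27), the largest decrease of any tested gene. Spry1 fell to 3.89 ± 0.935 CPM (-1.58, SE 0.21, adjusted p 1.5e-06) and Spry2 to 21.1 ± 3.23 CPM (-1.50, SE 0.09, adjusted p 3.3e-14). Spred1 fell to 27.9 ± 4.22 CPM (-0.71, SE 0.11, adjusted p 9.7e-06). Spred2, at 50.4 ± 7.46 CPM, had a log2 fold change of -0.13 (SE 0.09, adjusted p 0.329) and was not called.

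Leaving out the second clone 8 library of rev, which stands apart in composition, left the same 4 genes lower, with log2 fold changes of -1.59 for Spry1, -1.47 for Spry2, -6.18 for Spry4 and -0.73 for Spred1. That of Spred2 was then -0.21 (adjusted p 0.102). With library size alone, which shifts the median of all genes in this comparison to -0.41, the 4 genes were also called lower and Spred2 had -0.56 (adjusted p 0.0785).

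**Figure D2:**
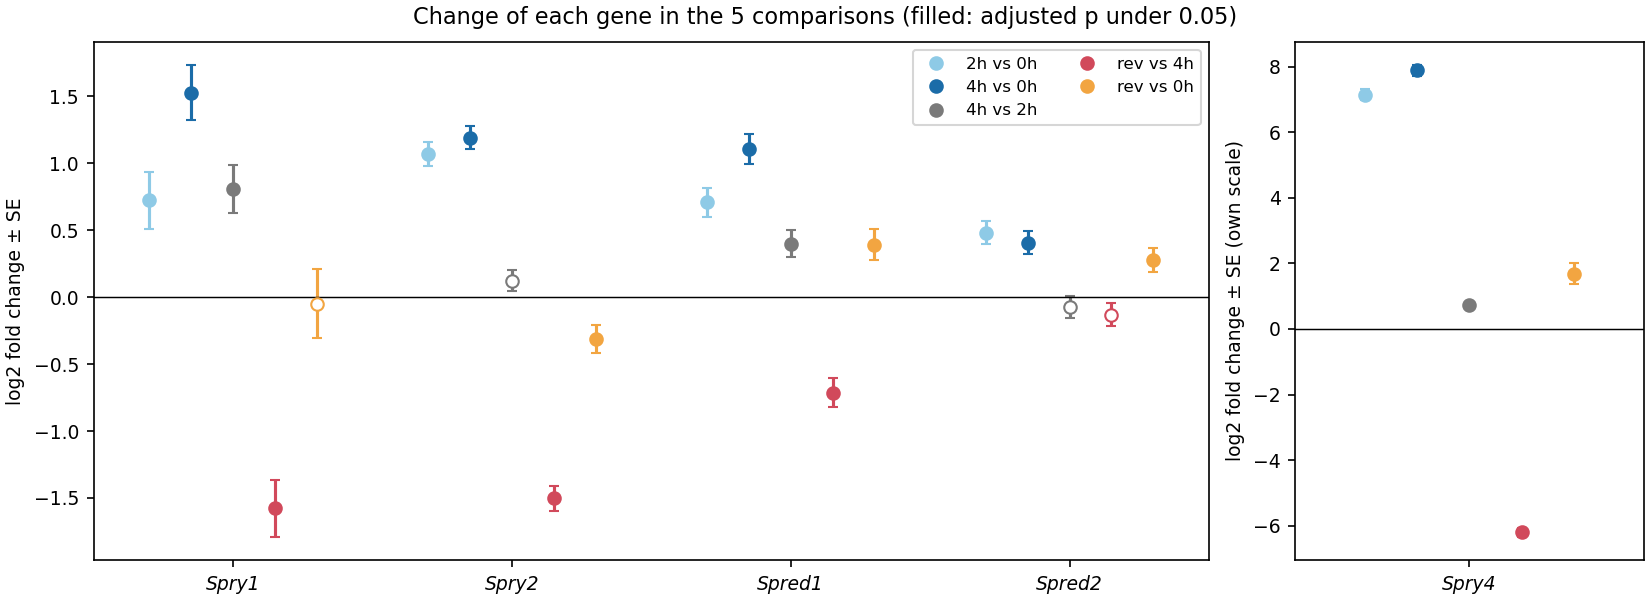
Log2 fold change with its SE from the edgeR model for each gene in the 5 comparisons, on a separate scale for Spry4, with filled points where the adjusted p was under 0.05. The rise at 4h and the fall from 4h to rev are similar in size for Spry1 (1.53 and -1.58), whereas Spred2 has a called rise of 0.41 and an uncalled value of -0.13.

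How far each gene returned varied among the members. The level left in rev was 1.27% of the 4h mean for Spry4, 34.4% for Spry1 and 34.7% for Spry2, but 62.0% for Spred1 and 94.0% for Spred2. As a share of the 4h rise in CPM, over the same 4 combinations, 99.2% ± 0.624 was undone for Spry4, 117% ± 16.2 for Spry2 and 99.4% ± 29.2 for Spry1. For Spred1 74.5% ± 19.7 was undone, and for Spred2 9.35% ± 81.2, with single combinations from -112 to 59.6%, so the share for Spred2 is not defined beyond its spread. On the log2 scale the share for Spry4 was 82.1%. With library size alone the share was 120% for Spred1, 115% for Spry1, 132% for Spry2 and 99.5% for Spry4. Without the second clone 8 library of rev, the level left was 1.33% for Spry4, 33.9% for Spry1, 37.1% for Spry2, 62.3% for Spred1 and 88.7% for Spred2, and the share undone for Spred2 was 49.8%. Without any other combination the share for Spred2 was below 0.

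**Figure D3:**
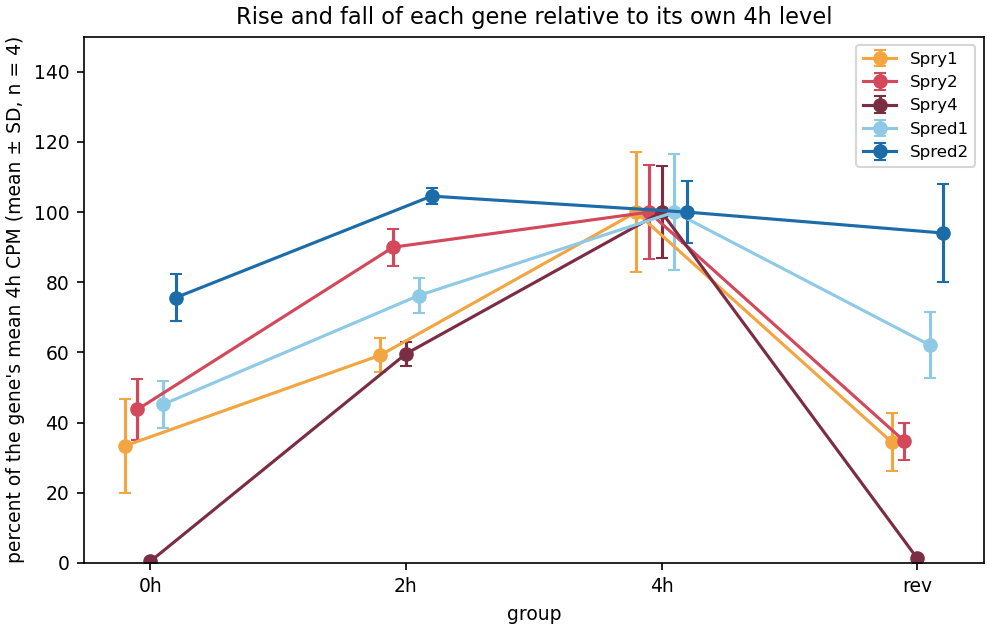
Level of each gene in each group as a percent of its own mean 4h CPM (mean ± SD, n = 4 libraries), with lines joining the groups of a gene. In rev, Spry4 is at 1.27%, Spry1 and Spry2 are at 34.4 and 34.7%, Spred1 is at 62.0% and Spred2 is at 94.0% of the 4h mean.

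Against the starting level, the members in rev differed in direction. Spry4, Spred1 and Spred2 were higher in rev than at 0h, 3 of 5 members on a background of 12.4% called higher, and Spry2 was lower, on a background of 9.86% called lower. Only Spry4 among the 5 had ranges that did not overlap (9.59% of tested genes in this direction), with a log2 fold change of 1.69 (SE 0.32, adjusted p 2.0e-04). The gap between the Spry4 ranges was 1.77 CPM at 0h to 1.82 CPM in rev, each from 11 counts. As percent of all counts the ranges overlapped, with 4.4e-05 to 1.9e-04 at 0h and 1.3e-04 to 5.4e-04 in rev. With library size alone Spry4 was still called (1.35, adjusted p 0.0194). Spred1 had a log2 fold change of 0.39 (SE 0.12, adjusted p 0.016), Spred2 one of 0.27 (SE 0.09, adjusted p 0.0254) and Spry2 one of -0.31 (SE 0.10, adjusted p 0.0292). For Spry1 it was -0.05 (SE 0.26, adjusted p 0.923), and no difference was detectable.

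The rev against 0h calls on Spry2, Spred1 and Spred2 each depended on single libraries and on the scaling, since with library size alone the values were -0.61, 0.081 and -0.048 and none of the 3 was called. Without the second clone 8 library of rev, Spry2 (-0.29, adjusted p 0.0608) and Spred2 (0.19, adjusted p 0.130) were not called and Spred1 was (0.37, adjusted p 0.0370). Spry2 was also lost without the first (-0.29) or second (-0.29) clone 4 library or the second clone 8 library (-0.24) of 0h, and without the first (-0.32) or second (-0.31) clone 4 library of rev. Spred1 was lost without the first (0.29) or second (0.34) clone 4 library of 0h or the second clone 4 library of rev (0.33). Spred2 was lost without the second clone 4 library (0.28) or the first clone 8 library (0.23) of 0h, or the second clone 4 library of rev (0.27). For Spry4 the value was 1.31 to 2.11 over all such fits, always called.

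The 2 clones were compared in the same model. Over all 4 groups together, Spry2 and Spry4 were lower in clone 8 than in clone 4, by log2 differences of -0.26 (SE 0.06, adjusted p 0.00186) and -0.23 (SE 0.08, adjusted p 0.0292), on a background of 29.1% of tested genes differing between the clones. At 0h alone both clone 8 libraries of Spry4 (1.77 and 0.962 CPM) were above both of clone 4 (0.815 and 0.448 CPM). The pooled differences of Spry1 (0.00), Spred1 (-0.15) and Spred2 (-0.10) were not called. No member's response was called different between the clones in any of the 5 comparisons, where few tested genes were called. These were 0.0901% of them for the change from 0h to 2h, 0.311% from 0h to 4h, 0.0327% from 2h to 4h, 0.00819% from 4h to rev and 0.0573% from 0h to rev. For Spry4 the difference in response (clone 8 minus clone 4) was -2.15 in rev against 0h (SE 0.66, unadjusted p 0.00267, adjusted p 0.259) and -1.43 in 4h against 0h (SE 0.57, adjusted p 0.302). For Spred1 it was -0.65 in 4h against 0h (SE 0.19, adjusted p 0.124), and for Spry1 it was 0.76 in rev against 4h (SE 0.44, adjusted p 0.874).

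Within each clone, with 2 libraries a group, every member was called higher at 4h than at 0h, on backgrounds of 11.6% of tested genes called higher in clone 4 and 11.9% in clone 8. In clone 4 the log2 fold changes at 4h were 1.58 for Spry1, 1.16 for Spry2, 8.82 for Spry4, 1.44 for Spred1 and 0.44 for Spred2, and in clone 8 they were 1.43, 1.203, 7.39, 0.79 and 0.35, all with an adjusted p under 0.05. The fall of Spry1, Spry2, Spry4 and Spred1 in rev was also called in both clones, where 5.46% of tested genes were called lower in clone 4 and 2.8% in clone 8. At 2h against 0h Spry2, Spry4, Spred1 and Spred2 were called higher in both clones (backgrounds of 4.95 and 9.79%), and at 4h against 2h Spry4 was (1.75 and 1.35%). Some calls of the joint model were not made in one or both clones. Spry1 was called in neither clone at 2h against 0h (0.79 in clone 4 and 0.69 in clone 8, adjusted p 0.173 and 0.0696) nor at 4h against 2h (0.79 and 0.75, adjusted p 0.0846 and 0.119). Spred1 at 4h against 2h was called in clone 4 (0.52) and not in clone 8 (0.25, adjusted p 0.355). In rev against 0h Spred1 was called in clone 4 (0.71, adjusted p 0.00122) and not in clone 8 (0.10, adjusted p 0.709), with an adjusted p of 0.329 for the difference, and Spry2 and Spred2 were called in neither (6.75% of tested genes were called higher in clone 4 and 7.84% in clone 8). The higher level of Spry4 in rev than at 0h was called in clone 4 (log2 fold change 2.82, adjusted p 3.6e-05) and not in clone 8 (0.67, adjusted p 0.364). In counts, clone 4 had 59 in rev against 6 at 0h, a ratio of levels of 7.30 (exact 95% counting interval 3.16 to 20.7), and clone 8 had 17 against 20, a ratio of 1.60 (0.789 to 3.22). The difference between these Spry4 responses is the one given as not called.

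Whether the members changed by different amounts was tested on the ratio of 2 members within a library, in which the scaling of the library cancels. All 10 pairs were compared in each comparison by a two-sided exact permutation test over 70 exchanges of 4 against 4 libraries, whose smallest p is 0.0286, with adjustment over the 10 pairs. At 4h against 0h, 7 of 10 ratios changed (adjusted p 0.0408 for each). The ratio of Spry4 to Spred2 rose by a log2 difference of 7.26 and that of Spry4 to Spred1 by 6.53, while those of Spry1 to Spry4 and Spry2 to Spry4 changed by -6.07 and -6.46. The other 3 were ratios to Spred2, which rose by 1.19 for Spry1, 0.80 for Spry2 and 0.73 for Spred1. Spry4 thus rose more, and Spred2 less, than each of the other 4 members. The ratios among Spry1, Spry2 and Spred1 changed by 0.39 (Spry1 to Spry2, adjusted p 0.179), 0.46 (Spry1 to Spred1, adjusted p 0.222) and 0.07 (Spry2 to Spred1, adjusted p 0.771). These log2 levels carry a prior count of 2, which shrinks changes of low genes.

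In rev against 4h, 8 of 10 ratios changed (adjusted p 0.0357 for each, exact permutation test). The ratio to Spred2 changed by -6.13 for Spry4, -1.42 for Spry2, -1.39 for Spry1 and -0.58 for Spred1, so each of these genes fell relative to Spred2. Spry2 and Spry4 also fell relative to Spred1, by -0.84 and -5.55, whereas the ratio of Spry1 to Spred1 changed by -0.80 (adjusted p 0.0635) and was not called. The ratios of Spry1 and Spry2 to Spry4 rose by 4.74 and 4.71, and the ratio of Spry1 to Spry2 changed by 0.04 (adjusted p 0.943). Without the second clone 8 library of rev, the changes relative to Spred2 were -6.01 for Spry4, -1.24 for Spry2, -1.34 for Spry1 and -0.50 for Spred1. Those relative to Spred1 were then -0.74 for Spry2, -5.51 for Spry4 and -0.83 for Spry1, and the ratio of Spry1 to Spry2 turned to -0.10. With 3 libraries against 4 the exact test cannot give a p under 0.0571. Between 2h and 4h 7 of 10 ratios changed, among them Spry1 to Spry2 (0.58) and Spry2 to Spry4 (-0.60), and Spry1 to Spry4 did not (-0.02, adjusted p 0.971).

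For 2h against 0h no ratio passed the adjustment. The 4 ratios with Spry4 and the ratio of Spry2 to Spred2 reached the smallest exact p of 0.0286, adjusted to 0.0571, with log2 changes of 6.45 for Spry4 to Spred2, 6.17 for Spry4 to Spred1, -5.87 for Spry2 to Spry4, -6.05 for Spry1 to Spry4 and 0.59 for Spry2 to Spred2. For rev against 0h, where 0 of 10 passed, 2 ratios reached an exact permutation p of 0.0286 (adjusted p 0.143), Spry2 to Spred2 at -0.63 and Spry4 to Spred1 at 0.98. Exchanges limited to within a clone number 36 and cannot give a p under 0.0556.

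Levels of the members were set against each other only per kilobase of exon (CPM per kb). At 0h the order was Spry2 (12.8 CPM per kb), Spred2 (8.78), Spred1 (2.99), Spry1 (1.29) and Spry4 (0.210). The ranges of Spry2 and Spred2 overlapped, although Spry2 was above Spred2 in 4 of 4 libraries, and per coding length Spred2 stood first (30.9 against 28.2 CPM per kb). At 2h Spry4 led (30.7 CPM per kb), just above Spry2 (26.3), with the lowest Spry4 library at 28.42 and the highest Spry2 library at 28.41, whereas per coding length Spry4 had 162 and Spry2 58.0 CPM per kb. At 4h Spry4 stood at 51.5 and Spry2 at 29.2 CPM per kb, with Spred2 (11.6), Spred1 (6.62) and Spry1 (3.89) below them. In rev the order was Spred2 (10.9), Spry2 (10.1), Spred1 (4.11), Spry1 (1.34) and Spry4 (0.656 CPM per kb), and the ranges of Spred2 and Spry2 overlapped, with Spred2 above in 1 of 4 libraries, the second of clone 8. Without that library Spry2 (10.8) was above Spred2 (10.3 CPM per kb).

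The make-up of the family transcript pool, a sum defined after the values were seen, therefore shifted from Spry2 and Spred2 to Spry4 and back. The summed level of the 5 genes was 26.0 ± 3.30 CPM per kb before induction, 76.4 ± 3.38 and 103 ± 12.3 at 2h and 4h, and 27.1 ± 2.15 in rev. Spry4 supplied 0.864% ± 0.622 of that sum before induction, 40.1% ± 0.662 and 50.1% ± 1.94 at 2h and 4h, and 2.38% ± 0.798 in rev. Spry2 went from 48.7% ± 4.28 to 34.3% ± 0.730 and 28.4% ± 1.06 and was at 37.3% ± 5.06 in rev, even though its own level had risen at 2h and 4h. The share of Spred2 was 33.9% ± 1.52, 15.9% ± 0.814, 11.3% ± 0.410 and 40.2% ± 5.07. Spred1 held 11.8, 6.61, 6.43 and 15.1% and Spry1 4.86, 3.01, 3.80 and 5.02% on average. The ranges of the sum at 0h (21.1 to 28.0 CPM per kb) and in rev (24.3 to 29.1) overlapped. The shares of Spry2 (43.4 to 52.8% at 0h, 29.8 to 40.9% in rev) and Spred2 (32.7 to 36.1% at 0h, 36.5 to 47.7% in rev) did not overlap, with Spry2 lower and Spred2 higher in rev. Without the second clone 8 library of rev the means there were 39.8% for Spry2, 37.7% for Spred2 and 2.47% for Spry4. The shares depend on the length used. Per coding length, a choice added after the values were seen, Spry4 supplied 54.8% at 2h and 64.3% at 4h, and Spry2 went from 35.2% at 0h to 19.6 and 15.2% and was at 25.1% in rev, with Spred2 at 39.0, 14.5, 9.70 and 43.01%. No test was run on these shares.

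**Figure D4:**
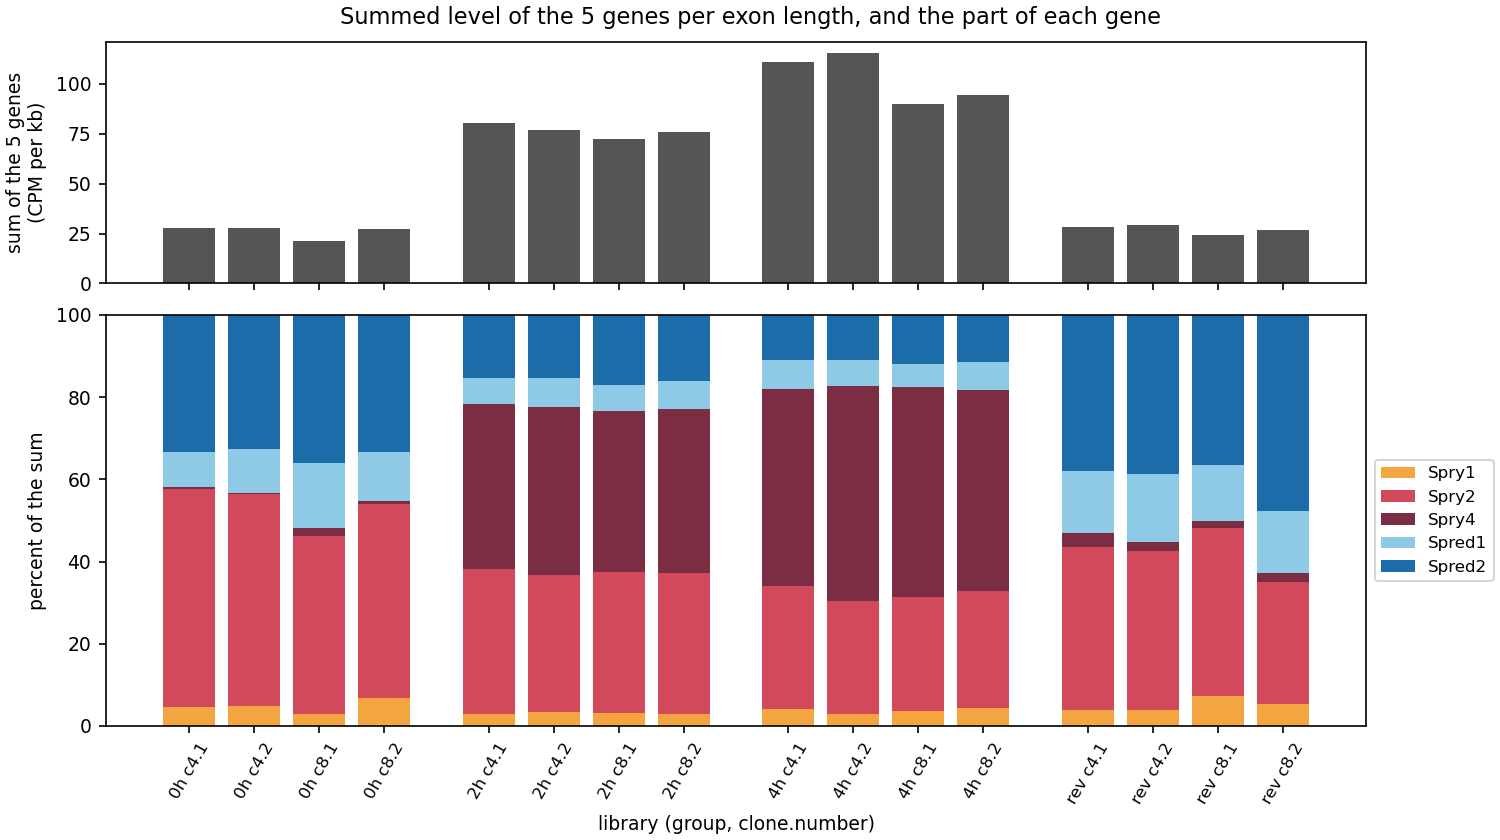
Sum of the 5 genes in CPM per kb of exon (top) and the percent of that sum from each gene (bottom), for each of the 16 libraries, labelled by group, clone (c4 or c8) and culture number. Spry4 supplies 39.3 to 40.9% of the sum at 2h and 48.0 to 52.3% at 4h, against 0.337 to 1.76% at 0h and 1.58 to 3.48% in rev.

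The remaining members of the family stayed silent or low. Spry3 (ENSMUSG00000061654) had a single count over all 16 libraries and was not tested. Spred3 (ENSMUSG00000037239), whose exons overlap the opposite-strand gene Ggn over 3.25% of their bases, had mean levels (0h, 2h, 4h, rev) of 3.89, 3.05, 3.89 and 4.28 CPM, with no call in any comparison.

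The genes of the pathway on which these inhibitors act were called at 4h in a share near that of all tested genes. Of 23 genes from FGF receptors to ERK, 21 were tested, and 5 were higher and 3 lower at 4h than at 0h, on a background of 33.9% of tested genes called in either direction, with a median log2 fold change of 0.12. Ksr1, a scaffold for RAF, MEK and ERK, had the biggest change among the called genes with a mean of at least 5 CPM, -0.80 (SE 0.14, adjusted p 4.3e-05), with 23.7 CPM at 0h and 13.9 at 4h. Rras2, a Ras-related GTPase, rose by 0.47, Shc1, an adaptor for receptor tyrosine kinases, rose by 0.31 and Fgfr1, an FGF receptor, changed by -0.37. In rev against 4h 2 of the 21 were higher and 1 lower, on a background of 16.4% called in either direction, and Fgfr1 was among the higher (0.60, adjusted p 4.7e-07).

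Of 15 genes whose products bind or modify Sprouty and Spred proteins, 14 were tested, and 3 were higher and 2 lower at 4h than at 0h, on the background of 33.9% called in either direction, with a median log2 fold change of -0.01. Nf1, the Spred partner, had means of 40.2 CPM at 0h and 39.2 at 4h (log2 fold change -0.04, SE 0.09, adjusted p 0.758). Siah2, a ubiquitin ligase, changed by -0.40, the receptor Kit by -0.37, the phosphatase subunit Ppp2ca by 0.36 and the Ras GTPase-activating gene Rasa1 by 0.29, each with an adjusted p under 0.05. From 4h to rev 1 of the 14 was higher, Kit, at 0.32 (adjusted p 0.00139), where 16.4% of tested genes were called in either direction. Cav1 was listed with 0 counts in every library and was not tested.

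The list of other inhibitors of the ERK pathway held 14 genes, of which 13 were tested. It includes Spry3 and the tested Spred3, already described. At 4h 6 of them were higher and 1 lower than at 0h, and in rev 7 were lower and 1 higher than at 4h, with median log2 fold changes of 0.23 and -0.33. Without those family members the counts over 12 tested genes were the same and the medians were 0.57 and -0.42. Over all tested genes 17.2% were called higher in the first of these comparisons (33.9% in either direction), and 8.43% were called lower in the second (16.4% in either direction). Dusp6, the ERK-specific phosphatase, rose by a log2 fold change of 5.40 (SE 0.17, adjusted p 8.1e-23), from 1.25 to 55.2 CPM, and changed by -5.24 in rev. Dusp4, another ERK phosphatase, rose by 3.73 and Dusp5, a nuclear ERK phosphatase, by 2.48, and they changed by -2.28 and -1.58 in rev. Errfi1, an inhibitor of the EGF receptor, rose by 1.40 and changed by -1.29 in rev.

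For each member the 3 genes outside the family whose log2 CPM followed it most closely over the 16 libraries, after centring within clone, were taken from 8646 genes with a mean of at least 5 CPM. For Spry4 these were Cdc42ep4 (r = 0.99), Phlda1 (r = 0.99) and Dusp6 (r = 0.99), and for Spry2 they were Tiparp (r = 0.96), Egr1 (r = 0.95) and Zfp36l2 (r = 0.95). Errfi1 (r = 0.91), Epha2 (r = 0.90) and Cstf2t (r = 0.88) were nearest to Spry1, and Pmaip1 (r = 0.98), Manba (r = 0.95) and Glul (r = 0.95) to Spred1. Bcl2l1 (r = 0.93), Cdyl (r = 0.89) and Elk4 (r = 0.88) were nearest to Spred2. The 5 members had no nearest neighbour in common. Between members r ran from 0.55 (Spry2 and Spred2) to 0.92 (Spry2 and Spry4). All these correlations share the libraries and the 4 group means and are given as descriptions.

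The courses of some of these neighbours, which were chosen for following a member, are given in CPM. Cdc42ep4, nearest to Spry4, had 45.5 ± 1.80 at 2h and 51.6 ± 5.502 at 4h, against 12.1 ± 1.07 at 0h and 16.9 ± 1.34 in rev. Errfi1, nearest to Spry1, had 25.9 ± 2.59 and 34.2 ± 6.48 in the induced groups, against 12.9 ± 2.69 before and 14.3 ± 1.81 in rev. Tiparp, nearest to Spry2, had 49.0 ± 2.21 at 2h and 56.2 ± 4.72 at 4h, against 12.4 ± 3.55 at 0h and 8.64 ± 1.61 in rev. Egr1, an immediate early transcription factor and the second neighbour of Spry2, had a different course among the induced groups, with 478 ± 137 at 2h and 284 ± 80.7 at 4h. Glul, near Spred1, had means of 44.9 ± 3.49 at 0h, 64.4 ± 4.88 at 2h and 95.1 ± 8.998 at 4h, with 61.2 ± 3.75 left in rev. Bcl2l1, nearest to Spred2, went from 16.5 ± 1.49 at 0h to 27.1 ± 1.31 at 2h and was still at 22.6 ± 4.27 in rev.

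The 3′ UTRs were examined, after the values had been seen, for the AU-rich pentamer ATTTA and the longer TATTTAT, which contains it, sequences known from short-lived messenger RNAs. Counted on the transcript strand, Spred1 held 12 ATTTA in 4330 bases, Spry4 7 in 3559, Spred2 4 in 2579, Spry1 2 in 1047 and Spry2 2 in 856. The median over 10973 tested genes with a 3′ UTR of at least 100 bases was 2, or 1.37 per kb. Every member held at least 1 TATTTAT, as did 31.8% of the tested genes, a share not matched for the length of the 3′ UTR. The ATTTA densities per kb were 2.77 for Spred1, 2.34 for Spry2, 1.97 for Spry4, 1.91 for Spry1 and 1.55 for Spred2. In the same order, 22.6, 29.5, 36.6, 37.8 and 45.9% of the tested genes held at least that density. The levels left in rev were 62.0, 34.7, 1.27, 34.4 and 94.0% in this order.

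Spry1 and Spry2 share a run of 17 bases near the transcript end that contains TATTTAT and occurs in no other of the 10973 3′ UTRs. This run is the longest shared by any 2 members, found after the values had been seen, and no background of other gene pairs was drawn. It lies 171 bases before the end of Spry1, at chr3:37644406-37644435 (plus strand), and 155 bases before the end of Spry2, at chr14:105892094-105892123 (minus strand), where these coordinates are those of the 30-base windows shown, with the shared run in capitals.
Spry1: tttatTGTAAAGAATATTTATTatgcgaat
Spry2: tttagTGTAAAGAATATTTATTtgaagttt
The other pairs of members shared runs of 11 to 16 bases. The run of 16, between Spry2 and Spry4, is likewise held by only these 2 of the 10973 3′ UTRs. In rev Spry1 and Spry2 were left at 34.4 and 34.7% of their 4h level, and Spry4 at 1.27%. The match is a description of the sequences, and whether it bears on the levels was not tested.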

How the data were processed

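RNA depleted of ribosomal RNA was measured in 16 libraries. The authors deposited raw counts of reads for each Ensembl gene in 1 table, and per the submitters' processing notes the build was mm10 and the tools included bcl2fastq 2.19.1 and STAR 2.5.3a. The counting tool, annotation and strand setting were not given in the sources used here, so reads in overlaps of opposite-strand genes could not be assigned. Of 52636 identifiers 52489 were matched to GENCODE M21 and 147 were not.

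In R 4.3.3, edgeR 4.0.16 filtered the counts (filterByExpr, 12215 genes) and scaled them with TMM, factors 0.463 to 1.47. All 16 libraries entered a quasi-likelihood model of group and clone, with two-sided contrasts and Benjamini-Hochberg adjustment over all tested genes at 0.05. The SE is the absolute log2 fold change over the square root of F. The biological coefficient of variation was 0.0795. A model of 8 group and clone cells gave differences between clones. Ratios of members and correlations used log2 CPM with a prior count of 2. Counting intervals (95%, exact) and the floor of 3 counts cover counting error only. The fitting steps were tested on simulated data. Correlations and figures were made in Python 3.11.15 with scipy 1.17.1 and matplotlib 3.10.9.

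The members, lists and tests were chosen with earlier results of these data known. All 5 members are named in every comparison, and from each pathway list up to 4 genes with the largest absolute log2 fold change at 4h against 0h (adjusted p under 0.05, mean of at least 5 CPM), plus Spry3, Spred3 and Nf1. Cav1 was named after its values were seen. Alternatives were RLE factors, library size alone, removal of the 8 most abundant models, other low-count filters, no clone term, a replicate block, only the 2 groups compared, DESeq2 1.42.0 and leaving out each library.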

Additional observations from a re-analysis of the deposited data

Results flagged for a closer look

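Both values that stood apart belong to Spred2, and each is a single library whose gap to the other 3 is most of its group's range. At 0h the first clone 8 library had 35.2 CPM, while the other 3 had 41.9 to 42.9 CPM. At 2h the second clone 4 library had 54.3 CPM, while the other 3 had 56.5 to 56.8 CPM. The 2h library rests on 124 counts, whose exact 95% counting interval of 45.2 to 64.7 CPM holds the other 3 values. The 0h library rests on 219 counts, and its interval of 30.7 to 40.2 CPM lies below the other 3 values. The intervals of those 3 libraries, 36.5 to 50.1, 37.4 to 47.4 and 37.9 to 46.3 CPM, overlap it. The first clone 8 library of 0h was also the lowest at 0h for Spry1 and Spry2 and the highest for Spry4 and Spred1. In all, 20 groups of 4 libraries (5 genes in 4 groups) were examined for a value standing apart, and chance alone marks about 1 group in 20. Without the 0h library the log2 fold change of Spred2 at 4h against 0h stayed called, as it did without the 2h library at 2h against 0h. In rev against 0h the call on Spred2 was lost without the 0h library (0.23, edgeR adjusted p 0.0896).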

How the results depend on the processing

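Over all alternatives, 588 of the members' log2 fold changes kept their direction and their side of the threshold, 31 lost the call and 5 changed sign. The cause was not tested in any of these cases. With library size alone, 2 members were called higher at 2h (Spry1 0.77, Spred1 0.71 and Spred2 0.48 were not), Spred2 was lost at 4h against 0h (0.51), and 1 member was called higher between 2h and 4h (Spry1 0.90 and Spred1 0.50 were not, and Spred2 turned to 0.035). In rev against 0h that scaling left 1 member higher and 0 lower, with Spry2 at -0.61, Spred1 at 0.081 and Spred2 turned to -0.048. Without the clone term, Spry1 was lost at 2h (0.76), 1 member was higher between 2h and 4h (Spry1 0.79, Spred1 0.41), and in rev against 0h Spry2 (-0.29) and Spred2 (0.30) were lost, with 0 members lower. With no low-count filter Spry2 (-0.32) and Spred2 (0.26) were lost in rev against 0h, with 0 members lower.

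Leaving out 1 library at a time gave log2 fold changes of 0.47 to 1.08 for Spry1 at 2h against 0h, of 0.34 to 0.50 for Spred1 between 2h and 4h, and for rev against 0h of -0.29 to 0.28 for Spry1, -0.40 to -0.24 for Spry2, 0.29 to 0.48 for Spred1 and 0.19 to 0.36 for Spred2. The sign of Spry1 turned without the second clone 8 library of 0h (0.28) or the first (0.12) or second (0.01) clone 4 library of rev. In that comparison 1 to 3 members were then higher and 0 to 1 lower. For 2h against 0h the number of members called higher was 4 to 5, between 2h and 4h it was 2 to 3, and at 4h all 5 stayed higher and in rev 4 stayed lower than at 4h in each such fit.

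Exchanging labels only within a clone left 0 ratios called from 0h to 4h, from 2h to 4h and from 4h to rev, since its smallest p is 0.0556. The share of the rise undone was 82.1% for Spry4 on the log2 scale and, with library size alone, 120% for Spred1 and -2329.8% for Spred2. Leaving out 1 combination of clone and number at a time gave -7.40 to 49.8% for Spred2, below 0 without the first (-3.51) or second (-1.47) of clone 4 or the first of clone 8 (-7.40). The ratio of group means, tried only once the data had been seen, gave a share of 24.4% for Spred2 and 69.2% for Spred1. Per coding length, Spry2 ranked 2 and Spred2 ranked 1 at 0h, and Spry2 supplied 15.2% of the family sum at 4h (28.4% per exon length). Culture numbers were not shown to pair the samples: residuals of same-numbered cultures correlated from -0.395 to 0.239 over 12 pairs (mean 0.0129, 4462 genes). With clone and number as a replicate block, every member kept its call in all 5 comparisons, for example Spry1 at 2h against 0h with 0.72 (adjusted p 0.0188), and 1338 genes were called higher and 1137 lower in that comparison.

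Counts over all genes moved by more than 1.5 times with library size alone, without the clone term and without some single libraries. Library size alone called 204 genes higher and 134 lower at 2h against 0h (1390 and 1182 with TMM), 554 and 327 at 4h against 0h (2098 and 2048), 88 and 12 at 4h against 2h (464 and 430), 57 and 1671 in rev against 4h (969 and 1030) and 105 higher in rev against 0h (1518). Without the clone term the counts of higher and lower genes were 747 and 462, 1459 and 1323, 129 and 90, 418 and 463, and 876 and 576 in the same order of comparisons. Leaving out single libraries gave as few as 743 lower at 2h against 0h, 303 higher and 260 lower at 4h against 2h and 644 higher in rev against 4h. Library size alone shifted the median log2 fold change of all genes to 0.10 between 2h and 4h, -0.41 from 4h to rev and -0.32 from 0h to rev. Low counts limit Spry1 and, at 0h and in rev, Spry4.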
